A study of Homo sapiens with 9 samples.

Results

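The genes described here are 8 factors of epithelial-mesenchymal transition (EMT) and of neural crest dedifferentiation, namely ZEB1, ZEB2, SNAI1, SNAI2, TWIST1, TWIST2, SOX9 and NGFR. They were taken by name from a table of 26475 gene symbols and not by their values, but with earlier results of these data known. All 8 passed the filter on low counts that left 16417 genes for testing. The cells were A375, an established line of human melanoma cells that carries mutant BRAF. They were treated for 24 h with DMSO, the solvent control, with 5 µM TP-472 or with 10 µM TP-472, and 3 libraries were sequenced per group. TP-472 inhibits BRD7 and BRD9, bromodomain proteins that read acetylated chromatin and belong to SWI/SNF remodelling complexes. All groups share this line and the treatment time.

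EMT is the programme by which epithelial cells loosen their junctions and become motile, and it is driven by transcription factors that bind E-boxes and repress epithelial genes such as CDH1. ZEB1 and ZEB2 are zinc finger and homeodomain repressors, SNAI1 (Snail) and SNAI2 (Slug) are zinc finger repressors, and TWIST1 and TWIST2 are basic helix-loop-helix factors. Melanocytes come from the neural crest, where the same factors act in delamination and migration. In melanoma, ZEB2 and SNAI2 are associated with the differentiated melanocytic state, whereas ZEB1 and TWIST1 are associated with a dedifferentiated, invasive state. SOX9 is a transcription factor of the early neural crest and of cartilage that is often expressed in opposition to SOX10. NGFR, the p75 neurotrophin receptor (CD271), marks neural crest stem cells and neural crest-like melanoma cells.

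The libraries held 42483091 to 51298130 expected counts, and levels are given below as CPM, counts per 1000000 counts, on library sizes scaled by TMM, whose factors were 0.957 to 1.029. Ribosomal RNA genes made up between 8.20% and 19.9% of a library. Replicate 1 at 10 µM stood apart from the other libraries. Among genes of at least 10 CPM its median absolute log2 difference from replicates 2 and 3 at 10 µM was 0.336 and 0.341, whereas replicates 2 and 3 differed from each other by 0.094. The changes of the members at 10 µM are therefore given with and without that library. As for the labelled cell type, the 8 melanocyte and melanoma markers summed to 448 to 468 CPM in DMSO, 448 to 462 CPM with 5 µM and 400 to 448 CPM with 10 µM. Most of that sum was SOX10, MITF averaged 30.3 CPM over the 9 libraries, TYR was at 0 in every library, DCT (0.00214 CPM) and MLANA (0.157 CPM) were close to 0, and PMEL averaged 1.82 CPM. Of these pigment genes of the differentiated melanocyte, TYR, DCT and MLANA were thus absent or nearly so, and PMEL was low.

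Levels of different genes were compared per kilobase of transcript in the DMSO libraries. NGFR was the highest of the 8 members at 25.04 ± 0.193 CPM per kb (SD, n = 3). TWIST2 (8.31 ± 0.598), ZEB1 (8.23 ± 0.158), SOX9 (7.73 ± 0.263), SNAI1 (7.70 ± 0.383) and TWIST1 (6.83 ± 0.874) followed on the same scale, and neighbours in that order overlapped in range except ZEB1, which lay wholly above SOX9. ZEB2 stood at 1.70 ± 0.0806 CPM per kb and SNAI2 was the lowest at 0.178 ± 0.0182 CPM per kb. SOX10, which is not a member, reached 145 ± 3.81 CPM per kb. At 10 µM TP-472, NGFR was still the highest member (14.3 ± 0.928 CPM per kb) and SNAI2 still the lowest (0.704 ± 0.162 CPM per kb). A gene counts below as called when edgeR's quasi-likelihood test gave an adjusted p under 0.05 and its fold change was at least 1.5.

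NGFR and SOX9 were the members called lower at both doses. At 5 µM TP-472, 3 of the 8 members were called lower (NGFR, SOX9 and SNAI1) and 0 were called higher, where 2.72% of all genes tested were called lower and 2.14% higher. At 10 µM, 3 members were called lower (SOX9, NGFR and ZEB1) and 1 was called higher (SNAI2), where 10.5% of all genes were called lower and 8.57% higher. The median log2 fold change of the 8 members was -0.32 at 5 µM and -0.51 at 10 µM, and that of all genes tested was 0.01 at either dose. Both doses were compared with the same 3 DMSO libraries. Without replicate 1 at 10 µM, the count at that dose was again 1 higher and 3 lower, with TWIST2 called in place of ZEB1.

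**Figure D1:**
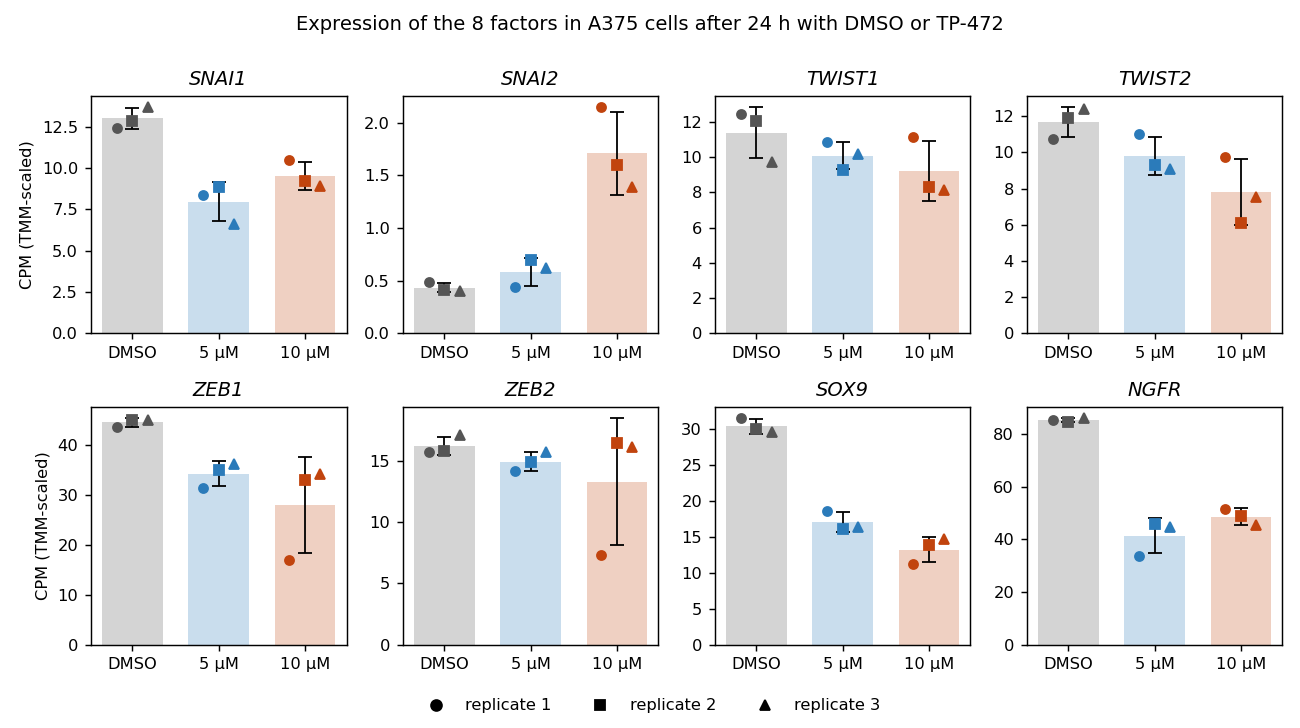
Level of each of the 8 members in the 9 libraries, in TMM-scaled CPM on linear axes that start at 0. Bars are group means with the SD over 3 libraries, and points are libraries with their shape giving the replicate. In NGFR and SOX9 the TP-472 libraries sit below all DMSO libraries, in SNAI2 the 10 µM libraries sit above, and in ZEB1 and ZEB2 replicate 1 at 10 µM lies far below the other libraries of its group.

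NGFR is a receptor for neurotrophins and their precursors and signals with the sortilin family and TRK receptors. It measured 85.6, 84.9 and 86.2 CPM in the DMSO libraries, 33.7, 46.0 and 44.9 CPM with 5 µM, and 51.7, 49.1 and 45.4 CPM with 10 µM. Every TP-472 library was below every DMSO library, and the libraries of the 5 µM and 10 µM groups overlapped. The fall was 2.06-fold at 5 µM (log2 fold change -1.04, SE 0.12, adjusted p = 0.000524) and 1.76-fold at 10 µM (log2 fold change -0.81, SE 0.12, adjusted p = 0.000524). The latter was -0.86 (adjusted p = 2.35e-06) without replicate 1 at 10 µM. The difference between the doses was 0.23 on the log2 scale (95% interval -0.03 to 0.49, adjusted p = 0.245). NGFR lies on chromosome 17 at 49495293 to 49515017 (GRCh38, plus strand), and 27.1% of its exonic bases are overlapped by the opposite-strand genes AC006487.1 and AC015656.1. No source used here states whether counting was by strand, so reads from those bases cannot be assigned to NGFR with certainty.

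SOX9 fell at both doses, with its lowest levels at 10 µM. Its levels were 31.6, 30.1 and 29.6 CPM in DMSO, 18.6, 16.2 and 16.4 CPM with 5 µM, and 11.2, 13.9 and 14.7 CPM with 10 µM. The 3 groups did not overlap. SOX9 was 1.78-fold lower at 5 µM (log2 fold change -0.83, SE 0.11, adjusted p = 0.00145) and 2.30-fold lower at 10 µM (log2 fold change -1.20, SE 0.11, adjusted p = 4.15e-05). The step from 5 µM to 10 µM did not pass the test (log2 fold change -0.36, adjusted p = 0.079). Without replicate 1 at 10 µM, the change from DMSO was -1.10 (adjusted p = 4.7e-08) and that step was -0.26 with an adjusted p of 0.0405, at a fold change of 1.197. The gene lies on chromosome 17 at 72121020 to 72126420 (plus strand), with no exonic overlap on the opposite strand.

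SOX10, the partner with which SOX9 is often contrasted in melanoma, had levels of 426, 404 and 420 CPM in DMSO and 413, 420 and 405 CPM with 5 µM. It measured 411, 399 and 363 CPM with 10 µM. The groups overlapped, and the log2 fold change was -0.01 at 5 µM (95% interval -0.16 to 0.14, adjusted p = 0.941) and -0.09 at 10 µM (95% interval -0.24 to 0.06, adjusted p = 0.333). With replicate 1 at 10 µM left out, the other two libraries of that dose lay below all DMSO libraries, and the change at 10 µM was -0.13 (95% interval -0.22 to -0.04, adjusted p = 0.0149), a fold change of 1.10. All of these intervals leave out a change of the size seen in SOX9. Within a library, the log2 ratio of SOX9 to SOX10 averaged -3.78 in DMSO, -4.60 at 5 µM and -4.89 at 10 µM.

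SNAI1 was called lower at 5 µM, and its fall at 10 µM passed the adjusted p but not the fold limit. It measured 12.4, 12.9 and 13.7 CPM in DMSO, 8.37, 8.87 and 6.61 CPM with 5 µM, and 10.5, 9.21 and 8.90 CPM with 10 µM. Every TP-472 library was below every DMSO library, and all 3 libraries at 10 µM were above all 3 at 5 µM. The change was -0.71 on the log2 scale at 5 µM (SE 0.13, adjusted p = 0.00885, fold change 1.63) and -0.45 at 10 µM (SE 0.13, adjusted p = 0.026, fold change 1.36). The call at 5 µM was lost without DMSO replicate 3 (log2 fold change -0.67, adjusted p = 0.0509), and without replicate 1 at 10 µM the change at 10 µM was -0.52 (adjusted p = 0.00336, fold change 1.44). The difference between doses was 0.26 (95% interval -0.04 to 0.56, adjusted p = 0.255). SNAI1 lies on chromosome 20 at 49982999 to 49988886 (plus strand).

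SNAI2 was the only member that rose, and it did so from a low level. Its rounded counts were 24, 20 and 17 in DMSO, 20, 36 and 30 at 5 µM, and 104, 83 and 68 at 10 µM. As levels these were 0.483, 0.412 and 0.402 CPM, then 0.438, 0.697 and 0.616 CPM, then 2.15, 1.596 and 1.39 CPM. The DMSO and 5 µM libraries overlapped, and the 10 µM libraries were above all others. The rise at 10 µM over DMSO was 3.94-fold (log2 fold change 1.98, SE 0.37, adjusted p = 0.00259), and the rise over 5 µM was 2.92-fold (log2 fold change 1.54, SE 0.36, adjusted p = 0.0294). Without replicate 1 at 10 µM these changes were 1.78 (adjusted p = 0.00461) and 1.34 (adjusted p = 0.0422). The rise over 5 µM was the only change called among the members between the doses, where 1.42% of all genes were called higher and 2.59% lower. That call was lost in 8 of 19 alternatives, among them leaving out any 1 DMSO or 5 µM library (log2 fold change 1.37 to 1.69, adjusted p = 0.0589 to 0.0954). With the trend in transcript length and GC content removed, the higher share of the called genes between doses went from 35.4% to 47.2%. At 5 µM the log2 fold change of 0.43 had a 95% interval of -0.39 to 1.25, and no change was detectable at this depth. SNAI2 is on chromosome 8 at 48917604 to 48921740 (minus strand).

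The balance of the Snail paralogues differed between the groups. The ratio of SNAI1 to SNAI2 in CPM, taken as the geometric mean of the 3 libraries, was 30.1 in DMSO, 13.8 at 5 µM and 5.66 at 10 µM. On the log2 scale the libraries ranged from 4.68 to 5.09 in DMSO, from 3.42 to 4.26 at 5 µM and from 2.29 to 2.68 at 10 µM, without overlap. SNAI1 remained the more abundant of the pair in every library.

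**Figure D2:**
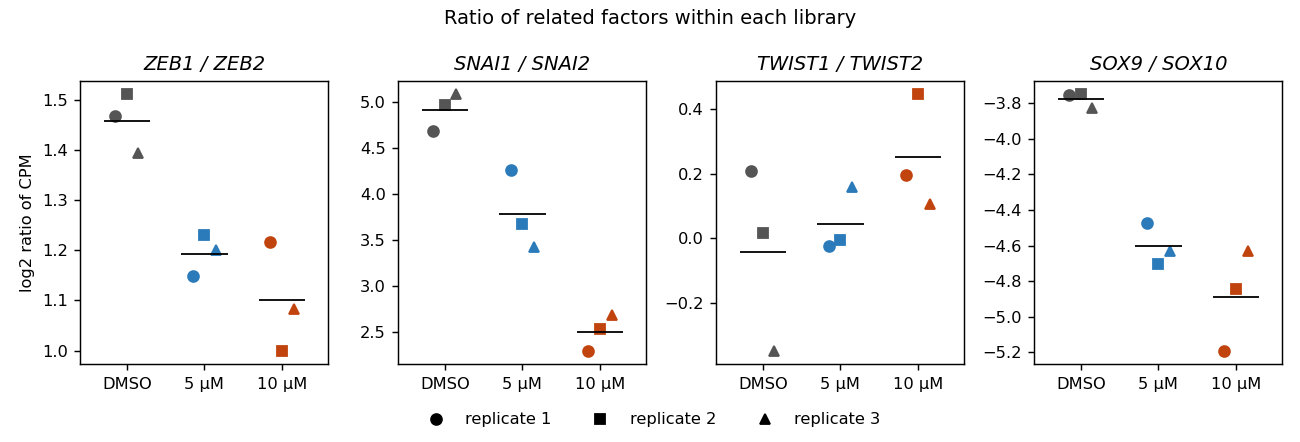
Log2 ratio of the CPM of ZEB1 to ZEB2, SNAI1 to SNAI2, TWIST1 to TWIST2 and SOX9 to SOX10 within each of the 9 libraries, with the group mean as a line. The SNAI1 to SNAI2 ratio drops from a mean of 4.91 in DMSO to 2.50 at 10 µM, and the TWIST1 to TWIST2 libraries of the 3 groups overlap.

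ZEB1 was lower in all TP-472 libraries, but the size of its change at 10 µM rested on replicate 1. Its levels were 43.6, 45.2 and 45.1 CPM in DMSO, 31.5, 35.1 and 36.3 CPM with 5 µM, and 17.0, 33.0 and 34.2 CPM with 10 µM. Replicates 2 and 3 at 10 µM lay within the range of the 5 µM libraries, and replicate 1 was far below them. The log2 fold change was -0.38 at 5 µM (SE 0.21, adjusted p = 0.319) and -0.67 at 10 µM (SE 0.21, adjusted p = 0.035, fold change 1.59), which was called. Without replicate 1 at 10 µM, the values were -0.38 at 5 µM (adjusted p = 0.000191) and -0.41 at 10 µM (adjusted p = 0.00014). Both changes then passed the adjusted p, but at fold changes of 1.30 and 1.33 neither was called. The call at 10 µM was also lost without any 1 DMSO or 5 µM library, at -0.69 to -0.66 (adjusted p = 0.0525 to 0.0894).

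ZEB2 measured 15.8, 15.8 and 17.1 CPM in DMSO, 14.2, 14.9 and 15.8 CPM with 5 µM, and 7.31, 16.5 and 16.1 CPM with 10 µM. Apart from replicate 1 at 10 µM, the 3 groups covered nearly the same levels. The log2 fold change was -0.12 at 5 µM (adjusted p = 0.839) and -0.28 at 10 µM (95% interval -0.83 to 0.27, adjusted p = 0.411). Without replicate 1, the value at 10 µM was 0.01 (95% interval -0.18 to 0.20). The log2 ratio of ZEB1 to ZEB2 averaged 1.46 in DMSO, 1.19 at 5 µM and 1.10 at 10 µM, and each of the 6 TP-472 libraries, replicate 1 at 10 µM (1.22) included, had a lower ratio than any DMSO library.

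ZEB1 and ZEB2 have the longest transcripts of the 8 members, at 5423 and 9541 bases, and replicate 1 at 10 µM differed from replicates 2 and 3 along transcript length. The median log2 difference of that library from the mean of the other two was 0.61 over the 1013 genes with transcripts under 1 kb, -0.26 over the 2952 genes of 4 to 6 kb and -0.61 over the 1077 genes over 8 kb. ZEB1 differed by -0.98, and 8.8% of the genes of its length class were lower. ZEB2 differed by -1.16, and 16.3% of its length class were lower. SOX9 (3935 bases) differed by -0.34, and the other members differed the other way, with TWIST2 at 0.52, SNAI2 at 0.52, TWIST1 at 0.44, SNAI1 at 0.21 and NGFR at 0.13. With the trend in transcript length and GC content removed from the counts, an alternative added after the data were seen, ZEB1 at 10 µM was at -0.53 (adjusted p = 0.00628) and was not called. The part of transcript length or RNA quality in the values of that library was not tested.

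**Figure D3:**
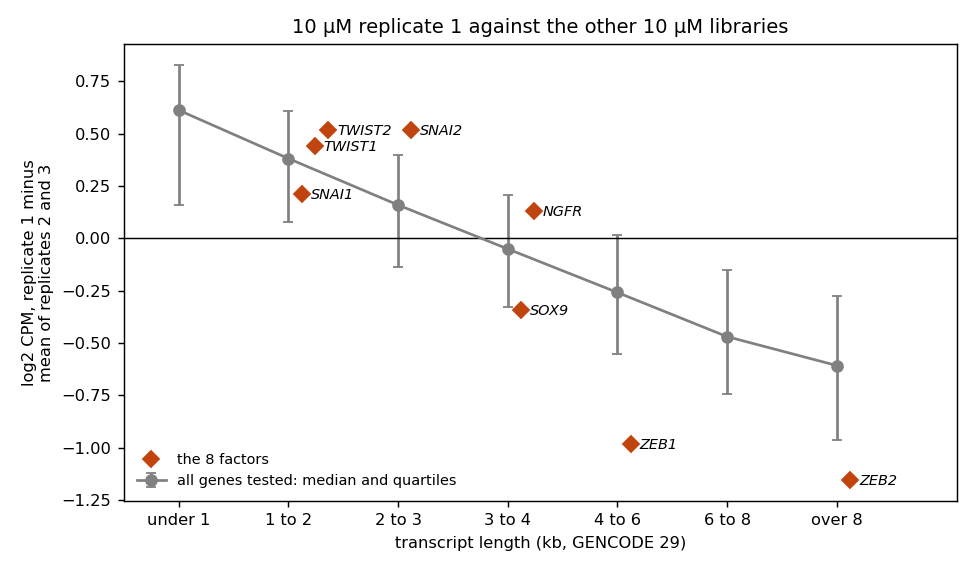
Log2 difference of 10 µM replicate 1 from the mean of 10 µM replicates 2 and 3, by transcript length class in kb, with the median and quartiles over the genes of each class and the 8 members marked. The medians go from 0.61 in the shortest class to -0.61 in the longest, and ZEB1 and ZEB2 lie below the medians of their classes.

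The stretch upstream of ZEB1 is shown because ZEB1, ZEB2 and the Snail factors bind the E-box CAGGTG, which reads CACCTG on the other strand. These are the 250 bases before the most upstream start site that RefSeq gives for ZEB1, on the plus strand of GRCh38.p14 at chr10:31318167-31318416, outside the exons of the gene in GENCODE release 29, with the E-box in capitals.
ZEB1 upstream: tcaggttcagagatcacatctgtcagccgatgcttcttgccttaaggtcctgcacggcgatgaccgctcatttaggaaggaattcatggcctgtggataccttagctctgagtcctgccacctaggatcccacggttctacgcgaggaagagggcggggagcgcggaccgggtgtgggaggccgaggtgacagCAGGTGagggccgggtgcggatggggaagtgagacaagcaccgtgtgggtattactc
The motif was searched as these 6 letters on both strands, without overlap with another motif, and its first base is at position -57 from the start site. Of 35116 RefSeq windows of 250 bases, 17.5% hold it. Of the 7 windows that RefSeq gives for ZEB1, 2 hold the motif and 5 do not, and the windows of ZEB2 and TWIST2 do not hold it. The match is a description of the letters and not of binding. ZEB1 itself spans 31318495 to 31529814 on chromosome 10, and ZEB2 spans 144364364 to 144524583 on chromosome 2 (minus strand).

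TWIST1 and TWIST2 had close to equal levels and did not reach a call at either dose. TWIST1 measured 12.4, 12.02 and 9.72 CPM in DMSO, 10.8, 9.28 and 10.1 CPM with 5 µM, and 11.2, 8.31 and 8.11 CPM with 10 µM. Its groups overlapped, and its log2 fold change was -0.18 at 5 µM (95% interval -0.52 to 0.17, adjusted p = 0.56) and -0.31 at 10 µM (95% interval -0.65 to 0.03, adjusted p = 0.15). Without replicate 1 at 10 µM the latter was -0.48 (adjusted p = 0.00605, fold change 1.39), still not called.

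TWIST2 measured 10.7, 11.9 and 12.4 CPM in DMSO, 10.997, 9.32 and 9.07 CPM with 5 µM, and 9.73, 6.09 and 7.54 CPM with 10 µM. All libraries at 10 µM were below all DMSO libraries, whereas 1 library at 5 µM lay within the DMSO range. At 10 µM the log2 fold change was -0.58 (SE 0.17, adjusted p = 0.0233), a fold change of 1.498 and so just under the limit. Without replicate 1 it was called, at -0.78 (adjusted p = 0.000186, fold change 1.71). It was also called without DMSO replicate 1 (-0.64, adjusted p = 0.0444) and without any 1 library at 5 µM (-0.59, adjusted p = 0.0291 to 0.0362). The ratio of TWIST1 to TWIST2 overlapped between all groups. TWIST1 lies on chromosome 7 at 19020991 to 19117672 (minus strand) and TWIST2 on chromosome 2 at 238848032 to 238910543 (plus strand).

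**Figure D4:**
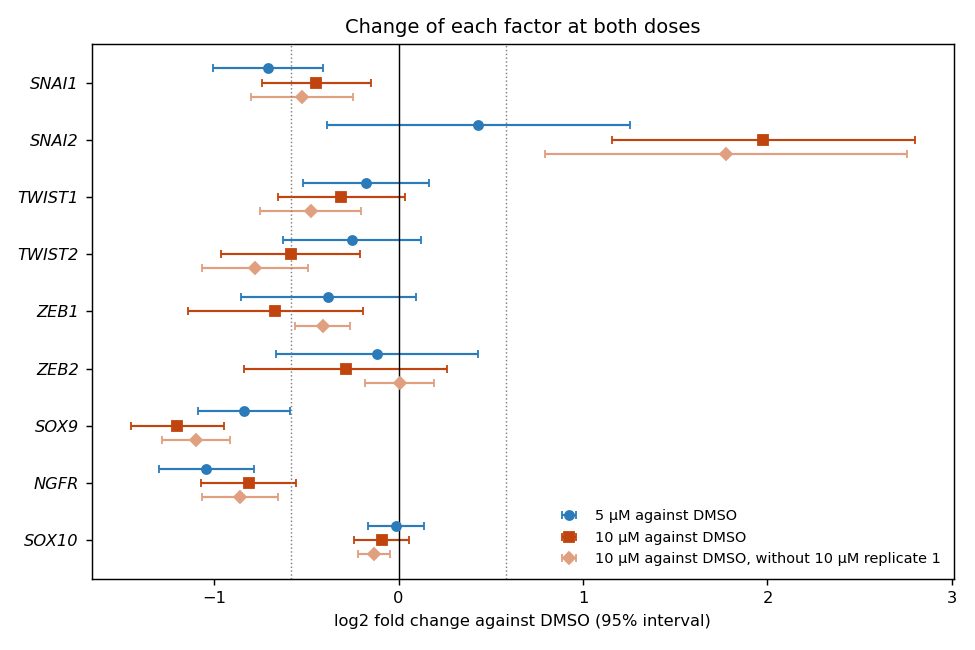
Log2 fold change of each member and of SOX10 at 5 µM and at 10 µM TP-472 against DMSO, with 95% intervals from the fit of all 9 libraries, and at 10 µM also without 10 µM replicate 1. Dotted lines mark a 1.5-fold change. With all 9 libraries, the intervals of NGFR and SOX9 lie below 0 at both doses, that of SNAI2 lies above 0 at 10 µM, and those of ZEB2, TWIST1 and SOX10 include 0 at both doses.

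By non-overlap alone, 4 members (ZEB1, SNAI1, SOX9 and NGFR) had all 5 µM libraries below all DMSO libraries, where 25.0% of all genes did so, and 0 had them above, where 23.7% did so. At 10 µM, 5 members (those 4 and TWIST2) lay below, where 26.0% of all genes did so, and SNAI2 lay above, where 23.4% did so. Between the doses, SNAI1 and SNAI2 were higher at 10 µM without overlap, where 12.1% of all genes were so, SOX9 was lower, where 16.2% were so, and the other 5 members overlapped.

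For each member with a mean of at least 1 CPM, the genes with the most similar course over the 9 libraries were found among 13678 genes, by the root mean square difference of log2 CPM centred on DMSO. The nearest to ZEB1 was CEP152 (0.06), and ARHGAP5 (0.06) and USP34 (0.06) were nearest to ZEB2. SNAI1 lay nearest to FAM46B (0.11) and SOX11 (0.12), TWIST1 to LSM6 (0.08) and SPAG16 (0.08), and TWIST2 to GSTM1 (0.10) and C8orf82 (0.10). SOX9 lay nearest to PAQR8 (0.06) and NES (0.10), the intermediate filament nestin of neural progenitors. NGFR lay nearest to EMC3-AS1 (0.12) and SOCS3 (0.14). SNAI2 was below the minimum level and was not compared. Several of these matches share the shift of replicate 1 at 10 µM. That library held 39.5 CPM of ARHGAP5, against 88.8 and 88.1 CPM in replicates 2 and 3 of that dose. The same libraries held 98.5, 207 and 216 CPM of USP34, 7.85, 15.4 and 16.2 CPM of CEP152, and 17.1, 8.52 and 11.8 CPM of GSTM1. Likeness without replicate 1 was not computed, and shared regulation was not tested.

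The lists below are read against all genes tested, of which 2.14% were called higher and 2.72% lower at 5 µM, and 8.57% higher and 10.5% lower at 10 µM. The first list holds E-box partners and corepressors of these factors, together with SNAI3, the ID inhibitors and other regulators. Of its 19 genes, 1 (ID2) was called higher and 0 lower at 5 µM. At 10 µM, 4 (21.1%) were called higher and 2 (10.5%, the share over all genes) lower, with a median log2 fold change of -0.21. The 4 higher genes, named below, were not E-box partners or corepressors, and the 2 lower genes were E-box partners. ID2, an inhibitor that keeps helix-loop-helix proteins such as the TWIST partners from DNA, rose from 1.38 ± 0.182 CPM in DMSO to 5.85 ± 1.21 CPM with 5 µM and 11.8 ± 3.60 CPM with 10 µM (adjusted p = 0.000837 and 1.63e-05). ID3, of the same family, rose from 45.2 ± 2.08 CPM to 86.5 ± 18.4 CPM with 10 µM (log2 fold change 0.94, adjusted p = 0.000464). FBXW7, a ubiquitin ligase subunit that targets Snail and other factors for degradation, rose from 13.3 ± 0.984 to 26.5 ± 1.84 CPM with 10 µM (log2 fold change 0.99, adjusted p = 0.000104). SNAI3 was also called higher at 10 µM, at low levels (0.156 CPM in DMSO and 0.626 CPM with 10 µM, log2 fold change 1.98, adjusted p = 0.0226). Its DMSO libraries held 0.121, 0.206 and 0.142 CPM, and it passed the filter only with the help of the TP-472 libraries. Its call is therefore no added evidence of a rise. The lower genes were TCF12 and TCF4 (log2 fold change -0.735 and -0.655, adjusted p = 0.00677 and 0.0437). Both lost their call without replicate 1 at 10 µM (-0.53 and -0.40, under the fold limit).

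Of 17 other EMT transcription factors, 15 were tested, and 1 (6.67%) was called higher and 3 (20.0%) lower at 10 µM, with a median of -0.32. PRRX1, a homeobox factor of mesenchyme, fell from 68.4 ± 2.42 CPM in DMSO to 34.3 ± 3.77 CPM with 5 µM and 11.7 ± 3.60 CPM with 10 µM (log2 fold change -0.997 and -2.55, adjusted p = 0.0067 and 8.11e-06). It was the only member of that list called at 5 µM. SOX4 fell from 42.2 ± 1.196 to 17.5 ± 1.54 CPM with 10 µM (log2 fold change -1.27, adjusted p = 4.56e-06), and LEF1, a nuclear partner of beta-catenin, fell from 20.1 ± 1.71 to 10.4 ± 1.17 CPM (log2 fold change -0.95, adjusted p = 0.000199).

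Epithelial genes did not rise as a group. Of 26, only 17 were tested, and 0 were called in either direction at 5 µM. At 10 µM 0 were called higher and 2 (11.8%) lower. The medians were 0.05 at 5 µM and -0.01 at 10 µM. Of the tested genes, OCLN, CLDN7, ESRP1, ESRP2, OVOL2, ST14 and KRT19 averaged under 1 CPM in DMSO, where only large changes could be called. CDH1 (E-cadherin), the best known gene repressed by these factors, was at 0 counts in all DMSO and 5 µM libraries and at 0.331, 0 and 0.102 CPM with 10 µM. A count of 0 allows up to 0.0577 to 0.0709 CPM in these libraries, by counting error only. The called genes were CLDN4, a tight junction claudin (36.9 ± 1.24 CPM in DMSO, 19.0 ± 6.03 CPM with 10 µM, log2 fold change -0.96, adjusted p = 0.00253), and PKP3, a desmosomal plakophilin (33.3 ± 2.70 and 21.6 ± 3.47 CPM, log2 fold change -0.62, adjusted p = 0.00318).

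Mesenchymal genes were mostly lower. Of 20 tested, 2 were called higher and 7 lower at 5 µM, and 2 (10.0%) were called higher and 13 (65.0%) lower at 10 µM, with medians of -0.47 and -1.02. This list holds matrix genes whose fall was already known from these data and so is no independent evidence. TGFBI, a secreted matrix protein, measured 546 ± 4.60 CPM in DMSO, 272 ± 2.44 CPM with 5 µM and 125 ± 9.37 CPM with 10 µM (log2 fold change -1.01 and -2.13, adjusted p = 3.18e-05 and 8.31e-08). CDH2 (N-cadherin) fell less, from 163 ± 0.402 CPM to 118 ± 2.93 and 100.4 ± 12.2 CPM, and was called at 10 µM only (log2 fold change -0.47 and -0.70, adjusted p = 0.00989 and 0.000282). VIM (vimentin) fell from 3720 ± 71.7 CPM to 2509 ± 46.5 and 2241 ± 288 CPM and was likewise called at 10 µM only (log2 fold change -0.57 and -0.73, adjusted p = 0.0025 and 0.000142). MMP2, a gelatinase, was at 746 ± 19.2, 494 ± 10.9 and 278 ± 14.6 CPM (adjusted p = 0.000474 and 5.31e-07), and FN1 was called lower at both doses (log2 fold change -1.03 and -2.49, adjusted p = 0.000957 and 1.19e-06).

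**Figure D5:**
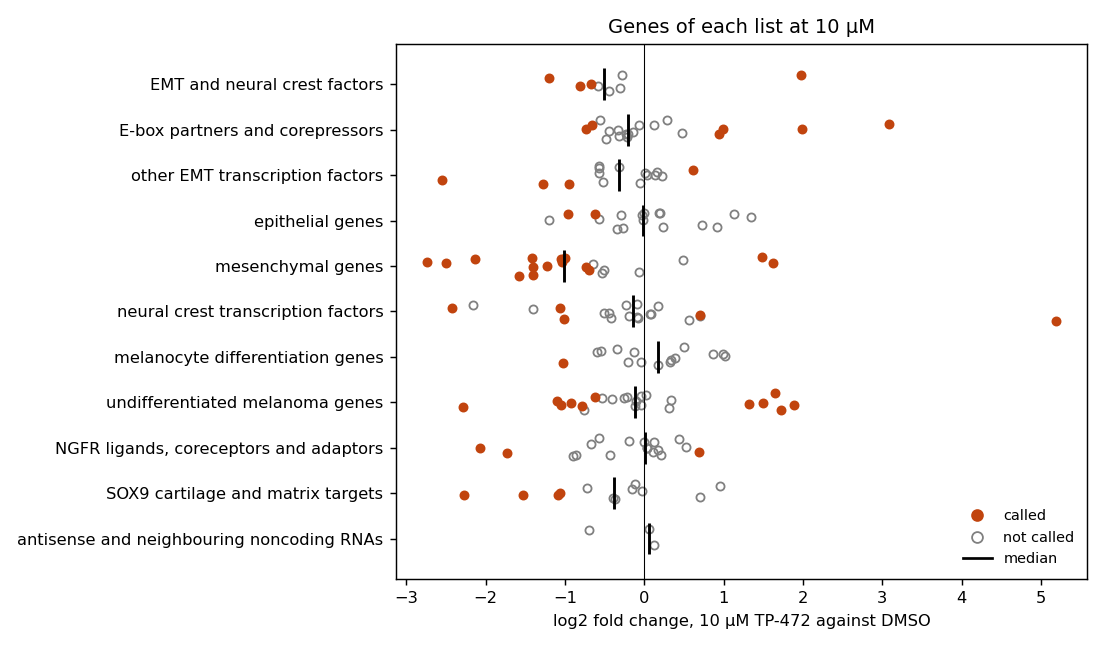
Log2 fold change at 10 µM TP-472 against DMSO of the tested genes of each list, with 1 point per gene, called genes filled and the list median as a bar. The mesenchymal list has the lowest median of the lists shown (-1.02), with 13 of 20 genes called lower, and the epithelial list has a median near 0.

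Of the neural crest transcription factors and receptors other than the members, 20 were tested. At 5 µM 1 was called higher and 1 lower, and at 10 µM 2 were called higher and 3 lower of these 20, beside 8.57% and 10.5% of all genes. NR2F1, an orphan nuclear receptor of the neural crest, fell from 84.9 ± 0.905 CPM to 37.9 ± 3.89 and 15.8 ± 1.06 CPM (log2 fold change -1.17 and -2.43, adjusted p = 6.73e-05 and 2.07e-07). ERBB3, a neuregulin receptor of migrating crest cells, fell from 215 ± 2.99 to 107 ± 3.76 CPM with 10 µM (log2 fold change -1.01, adjusted p = 4.86e-06). DLX5 was called higher at 10 µM but was near 0 throughout, at 0.0134 CPM on average in DMSO and 0.604 CPM with 10 µM, and it passed the filter through TP-472 libraries only. MSX2 was the other higher gene, called at both doses, at 5.66 ± 0.729 CPM in DMSO, 10.02 ± 1.14 CPM with 5 µM and 9.19 ± 2.08 CPM with 10 µM. Its log2 fold changes were 0.82 and 0.70 (adjusted p = 0.0189 and 0.0142). The call at 10 µM was lost without replicate 1 (0.52, under the fold limit).

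Of the 15 genes of melanocyte differentiation tested, TYRP1, GPR143, OCA2, SLC45A2, SLC24A5, MLANA and CAPN3 averaged under 1 CPM in DMSO. The SE of their log2 fold changes at 10 µM ran from 0.439 (CAPN3) to 1.37 (SLC24A5), so only large changes could be called there. The 15 genes gave 0 calls at 5 µM and 1 at 10 µM. That gene was RAB27A, which moves melanosomes, at 7.97 ± 0.164 CPM in DMSO and 3.93 ± 1.08 CPM with 10 µM (log2 fold change -1.02, adjusted p = 0.00244). MITF, the master factor of the melanocyte lineage, measured 29.9, 32.7 and 33.3 CPM in DMSO and 23.3, 35.9 and 28.1 CPM with 10 µM, with overlap (log2 fold change -0.14, adjusted p = 0.512). Of 23 genes of undifferentiated melanoma, 1 was called higher and 1 lower at 5 µM. At 10 µM 5 (21.7%) were called higher and 6 (26.1%) lower, with a median log2 fold change of -0.112. The 3 with the smallest p were the YAP targets CTGF (35.3 ± 0.366 to 130 ± 2.90 CPM, log2 fold change 1.88, adjusted p = 1.41e-07) and CYR61 (78.2 ± 4.08 to 221 ± 16.0 CPM, log2 fold change 1.495, adjusted p = 1.44e-06), and the WNT inhibitor DKK1 (120 ± 1.35 to 395 ± 33.8 CPM, log2 fold change 1.72, adjusted p = 4.86e-07). The 6 genes called lower at 10 µM were F2RL1 (log2 fold change -2.285), TGFBR2 (-1.105), WNT5A (-1.052), TEAD2 (-0.923), SMAD3 (-0.785) and IL1B (-0.623). AXL, the receptor tyrosine kinase typical of the undifferentiated state, was not called (log2 fold change -0.31 and -0.25, adjusted p = 0.0296 and 0.0255). EGFR was not called at 10 µM (log2 fold change -0.76, adjusted p = 0.093), where replicate 1 held 12.4 CPM against 36.2 and 37.3 CPM in the other two.

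Around NGFR, 18 of 22 ligands, coreceptors and adaptors were tested, and 0 were called higher and 1 lower at 5 µM, 1 higher (5.56%) and 2 lower (11.1%) at 10 µM, close to the shares of all genes (8.57% and 10.5%). SORCS2, a sortilin-family coreceptor of NGFR for proneurotrophins, fell from 6.63 ± 0.481 CPM to 3.57 ± 0.470 and 2.00 ± 0.458 CPM (log2 fold change -0.89 and -1.73, adjusted p = 0.0196 and 0.000172). PSENEN, a subunit of the gamma-secretase that cleaves the receptor, rose from 29.2 ± 0.829 to 47.0 ± 9.60 CPM with 10 µM (adjusted p = 0.0024), at a log2 fold change of 0.69, and lost its call without replicate 1 (0.50, under the fold limit). The Nogo coreceptor LINGO1 was under 1 CPM in every library, and its call at 10 µM (adjusted p = 0.0498) was lost without replicate 1 (adjusted p = 0.0781).

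Of 18 cartilage and matrix targets of SOX9, 12 were tested, and 0 were called higher and 2 lower at 5 µM, 0 higher and 4 (33.3%) lower at 10 µM. Collagen and other matrix genes are a class whose fall was already known from these data, so this list is no independent evidence. The part of SOX9 in these falls was not tested. HAPLN1, a link protein of proteoglycans, fell from 30.5 ± 2.29 CPM to 15.4 ± 1.42 and 6.29 ± 0.797 CPM (log2 fold change -0.98 and -2.28, adjusted p = 0.00081 and 1.29e-06). COL9A3, a cartilage collagen chain, fell from 590 ± 10.2 CPM to 368 ± 28.9 and 204 ± 41.3 CPM (log2 fold change -0.68 and -1.54, adjusted p = 0.00828 and 1.87e-05). SOX5, a cofactor of SOX9 in cartilage, was called lower at 10 µM (log2 fold change -1.06, adjusted p = 0.012), with replicate 1 at 17.3 CPM and the others at 38.8 and 44.1 CPM. It is also counted among the lower genes of the neural crest list.

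Of 9 noncoding RNAs next to the members that were looked for, 5 were found by symbol and 3 were tested. ZEB1-AS1, which overlaps 4.23% of the exonic bases of ZEB1 on the opposite strand, measured 4.06, 3.89 and 4.73 CPM in DMSO, 3.59, 2.11 and 2.73 CPM with 5 µM, and 1.94, 2.36 and 3.50 CPM with 10 µM. It did not pass the test (log2 fold change -0.59 and -0.70, adjusted p = 0.212 and 0.0704). LINC00673 and LINC01152 near SOX9 were not called at either dose. ZEB2-AS1 was at 0 in every library, and SOX9-AS1 reached at most 0.350 CPM.

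With replicate 1 at 10 µM left out, 5 genes of these lists lost their call at 10 µM and 7 gained one, and the count in each direction moved by at most 1 in each list. The genes that lost their calls were PSENEN, LINGO1, TCF12, TCF4 and MSX2. The medians then went from -0.21 to -0.14 for the list with the E-box partners and from -0.32 to -0.19 for the other EMT factors. They went from -0.01 to -0.20 for the epithelial list and from -0.14 to -0.35 for the neural crest list. The median of the SOX9 targets went from -0.38 to -0.61. The medians of the melanocyte list and the NGFR partners went from 0.17 to 0.00 and from 0.01 to -0.18.

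Markers of other cell types were followed beside these results. All libraries are labelled as the A375 line alone, so these sums are not read as numbers of other cells. COL1A1, COL1A2, COL3A1 and THY1, among the fibroblast markers, are also expressed by melanoma cells. Bulk RNA does not show which cells a transcript came from. Summed fibroblast markers (7, of which 5 were tested) were 16.7 to 17.8 CPM in DMSO, 10.8 to 11.5 CPM with 5 µM and 6.97 to 8.88 CPM with 10 µM, with COL1A2 and THY1 close to 0. Endothelial markers (5) summed to 4.37 to 6.05, 5.78 to 10.1 and 10.97 to 16.7 CPM, mostly through KDR. Keratinocyte markers (7, of which 3 were tested) summed to 49.4 to 56.7, 62.2 to 66.0 and 67.1 to 98.04 CPM, mostly KRT10, with KRT1, TP63 and DSG3 close to 0. Leukocyte markers (6) summed to 6.12 to 6.64, 5.38 to 6.14 and 5.42 to 7.23 CPM, mostly LYZ, with CD3E and TYROBP at 0. Their part in the values of the members was not tested.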

How the data were processed

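The samples were 9 RNA libraries of A375 cells, 3 after DMSO and 3 after each dose of TP-472, which the design text calls biological replicates. The authors deposited a single matrix with the expected counts of every gene symbol, and the submitters' processing notes name Bowtie2 2.1.0, RSEM 1.2.15 and hg38, without roles. The labels describe mRNA purified on oligo-dT beads and the design text describes depletion of ribosomal RNA, and no source used here gives the use of strand in counting. No scaling to library size had been applied, and between 10.6% and 13.8% of a library's entries were fractional.

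Values were rounded and tested with edgeR 4.0.16 (R 4.3.3) with TMM factors, the filterByExpr filter and the quasi-likelihood F test in 1 fit of all 3 groups, with Benjamini-Hochberg adjustment over the 16417 genes that passed. A gene was called at an adjusted p under 0.05 and a fold change of at least 1.5. CPM use TMM-scaled library sizes, and standard errors and 95% intervals come from the same fit. Lengths are of GENCODE release 29 transcripts on GRCh38. The test was checked on simulated counts. Alternatives were other scaling and filters, DESeq2 1.42.0, limma-voom (limma 3.58.1), a replicate block, fits of only the groups compared, each library left out, the adjusted p alone and ribosomal RNA genes left out. The removal of a trend in transcript length and GC content, fitted as splines with 4 degrees of freedom, was added later.

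The members and lists were chosen with earlier results of these data known. Genes named besides the members are SOX10, the 3 genes of each list with the smallest p at 10 µM among those called, CDH1, CDH2, VIM, FN1, MITF, AXL and EGFR, the tested antisense RNAs, and the 2 nearest genes of each member (1 of them is not reported here), and marker genes are named by their share of a sum. Further called genes of some lists are named as well. Promoter windows are from RefSeq on GRCh38.p14. Member windows on chromosome 8, where SNAI2 lies, were left out of the search, and windows of 3 of the 8 members were read. Depth was 42483091 to 51298130 counts per library, and levels under 1 CPM carry the largest counting error.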

Additional observations from a re-analysis of the deposited data

How the results depend on the processing

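Each of the 24 member comparisons was recomputed under 19 alternatives, 456 values in all, of which 427 kept their direction and their side of the thresholds, 18 lost a call, 9 gained a call and 2 changed sign. The calls of NGFR and SOX9 against DMSO at both doses and of SNAI2 at 10 µM held under every alternative run, with log2 fold changes at 10 µM of -0.86 to -0.62, -1.28 to -1.10 and 1.78 to 2.11. Under the filter of at least 1 CPM in 3 libraries, however, SNAI2 was kept only through its 10 µM libraries. Its call under that filter is therefore no added evidence of a rise. The sign changes were those of ZEB2 without 10 µM replicate 1, to 0.006 against DMSO and 0.122 against 5 µM (over the libraries left out in turn, from -0.474 to 0.006 and from -0.358 to 0.122). ZEB1 at 10 µM lost its call in 9 of the 19 (log2 fold change -0.83 to -0.41, adjusted p 0.00014 to 0.0894), SNAI2 between doses in 8 (adjusted p up to 0.111) and SNAI1 at 5 µM in 1, without DMSO replicate 3 (adjusted p = 0.0509), while TWIST2 at 10 µM was called in 9. In the counts over all genes, the adjusted p alone gave 722 higher and 954 lower genes at 5 µM, 2687 and 2947 at 10 µM, and 471 and 908 between doses. Fits of only the groups compared gave 591 and 729 at 5 µM and 101 and 165 between doses, and DESeq2 gave 418 higher between doses. With 1 library left out, the counts ran from 197 to 575 higher and from 283 to 666 lower at 5 µM, from 118 to 320 higher and from 258 to 572 lower between doses. The highest at 5 µM came without 10 µM replicate 1 and the lowest without DMSO replicate 2. Same-numbered libraries of different groups deviated from their group means with correlations of -0.049 to 0.032 over 9 pairs, so the numbers were not taken as a pairing. With a replicate block, SNAI2 between doses was at 1.53 with an adjusted p of 0.073, TWIST2 at 10 µM was called, and 288 higher and 399 lower genes were called at 5 µM. The causes of these shifts were not tested. Depth limits SNAI2 most, at 17 to 36 counts in the DMSO and 5 µM libraries.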
